A study of Rattus norvegicus with 48 samples.

Results

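Motile cilia are the beating hairs of the ciliated cells that line the airways, and they move mucus and trapped particles out of the lung. The genes described here code for the parts of these cilia and for the factor that switches the program on. A fixed list held 37 such genes. Members were the listed genes present in both count tables with a mean of at least 0.5 CPM (counts scaled to a fixed library total) over 48 libraries, which kept 36 of the 37, out of 30045 gene rows in the tables. Rsph4a, a radial spoke head gene, was dropped, with a mean of 0.173 CPM and 40 counts in all libraries together.

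The samples were lungs of male rats of the Sprague-Dawley strain, of about 200 to 250 g, whose age was not given and which were housed in pairs. Each library was made from a piece of 1 animal's lung. The 8 groups of 6 animals were oil vapor and filtered air, each for a single exposure (300 ppm of oil vapor for 6 h on 1 day) or a repeated exposure (300 ppm for 6 h per day on 4 days per week for 4 weeks, which makes 16 exposure days), and each with lungs taken 1 or 28 days after the last exposure. Air animals received 0 ppm, and no genotype or drug was part of any group. Cage mates may share a group, and p-values measure the spread between these animals.

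A motile cilium is built around an axoneme, a ring of doublet microtubules with a central pair. Dynein motor proteins, set in outer and inner arms along the doublets, slide the doublets against each other, while radial spokes and the central pair set the rhythm and a nexin link turns sliding into bending. In mammals the forkhead factor Foxj1, together with Rfx factors that bind X-box elements in promoters, turns on most genes of this set in cells that form motile cilia.

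By role, the members were the regulator Foxj1, 7 genes of the outer dynein arm and its docking complex (Dnai1, Dnai2, Dnah5, Dnah9, Dnah11, Ccdc114, Armc4), 7 of the inner arm (Dnah1, Dnah2, Dnah3, Dnah6, Dnah7, Dnah12, Dnali1) and 4 of the molecular ruler and nexin link or placed with them (Ccdc39, Ccdc40, Ccdc113, Drc1). There were also 2 radial spoke genes (Rsph1, Rsph9), 5 of the central pair (Spag6, Spag16, Spag17, Hydin, Spef2) and 4 of tektins and tubulin binding (Tekt1, Tekt2, Tekt4, Tppp3). The last 2 roles were arm assembly in the cytoplasm, with 2 genes (Lrrc6, Zmynd10), and kinases and others, with 4 (Ak7, Ak8, Armc3, Stk33).

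The promoters of the members are shown first because the members moved together from animal to animal, as described further on, and because the X-box core is a textbook feature of such genes. RefSeq promoters of build GRCr8 (250 bases before to 50 after the start) were matched for 27 of the 36 members, with Ccdc114 found under its newer symbol Odad1. The core GTTGCC, searched on both strands, was in 11 of these 27 (40.7%), against 4087 of 33469 promoters in the table (12.2%) and 1453 of 10772 genes that were both tested and matched (13.5%). It occurred at 14 places, of which 10 began between 60 bases before and 15 bases after the start. Places in that stretch were not counted in other promoters, so the 10 have no share to be set against. The lines below give 20 bases around the place nearest to the start in each of 8 members and both places in Tekt2, each read 5′ to 3′ on the strand that carries the motif, with the X-box core in capitals. Dnah11, which has 6 promoter entries, and Dnah2 are not shown.
Dnai2: tttaccgGTTGCCtagcaac
Ccdc113: gcagagcGTTGCCtagacaa
Drc1: acaagccGTTGCCaagggaa
Spag6: ctggtctGTTGCCccagagt
Hydin: accatctGTTGCCacagcaa
Spef2: gcaactgGTTGCCctgggcg
Tekt1: gcgtccgGTTGCCatagtga
Tekt4: gctcctgGTTGCCtcaggaa
Tekt2, first place: ggctctgGTTGCCtagcaac
Tekt2, second place: cgccttcGTTGCCcaggtct

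The windows of Dnai2 and Tekt2 shared a run of 14 bases, ggttgcctagcaac. A strict form of the X-box with both arms, GTTNCC followed after 2 bases by GGNAAC (N, any base), was in 0 of 27 members. It was in 158 of 33469 promoters (0.472%). Other spacings and letters of the second arm were not searched. In the shared run above, gttgcc and agcaac stand closer together than this form allows, so that run was not counted. The longer motif GTTGCCAT, which contains the core, was in the promoters of 2 of 27 members (7.41%), among them Tekt1, against 435 of 33469 promoters (1.3%). The forkhead core TGTTTAC was in those of Dnali1 and Spef2, 2 of 27, against 1265 of 33469 (3.78%). A match is a string of letters and not a tested binding site. The promoter of Tekt1, which holds this longer match, is given whole on the gene's strand, with the match in capitals.
Tekt1, GRCr8 chr10:57479072-57479371, minus strand: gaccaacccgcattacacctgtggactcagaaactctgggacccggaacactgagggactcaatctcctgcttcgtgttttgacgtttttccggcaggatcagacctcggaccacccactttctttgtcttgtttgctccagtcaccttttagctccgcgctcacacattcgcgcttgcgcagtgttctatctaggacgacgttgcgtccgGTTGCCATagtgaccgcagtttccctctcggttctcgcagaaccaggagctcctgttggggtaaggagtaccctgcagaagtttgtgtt

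Library totals ranged from 1.54 to 7.16 M counts (M, mega), and the members took 0.0915% to 0.289% of them. All 8 markers each of alveolar type 2 and type 1 cells were measured, as the lung label would have it. Animal 43, of the oil vapor group 1 day after the repeated exposure, stood apart: it had the shallowest library, the lowest summed level of the cilia genes (915 CPM) and the highest summed level of 8 erythroid genes (42872 CPM). Counts of the erythroid gene Alas2 also ran in parallel between the exposure schedules. With animals put in order of their numbers inside a group and paired with that position in the other schedule, log2 counts of Alas2, the erythroid enzyme of heme synthesis, correlated with r = 0.997 over 24 pairs of animals, centred within groups. The log2 counts of the members gave r = 0.317 and their log2 CPM r = 0.000843 over the same pairs. Raw Alas2 counts were, for example, 27026 in animal 5 and 30019 in animal 43, and 500 in animal 7 and 491 in animal 45. Alb, a liver gene, also peaked at the same position in air lungs at 28 days. It had 586 CPM in animal 17 of the single and 683 CPM in animal 82 of the repeated schedule. No correlation was taken for Alb. The fits took all libraries as independent, and the part of this parallel in the contrasts between schedules was not tested.

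At 1 day after a single exposure, the cilia genes had lower values in oil vapor lungs almost without exception, but none of these differences passed a test adjusted over the whole transcriptome. Of 35 members tested, 34 were lower than in air, by a median log2 fold change of -0.48, against 0.01 over all 14820 genes tested. By edgeR's quasi-likelihood test 0 of the 35 had an adjusted p below 0.05, as was so for every other gene (0% of genes). At an unadjusted p below 0.05, 21 of 35 members were lower, against 5.45% of all genes, and 0 were higher. Counts of members here and below are not counts of separate results. Within groups the members rose and fell together from animal to animal, with r of 0.53 to 0.97 between each and the mean of the others. The exception in sign was Tppp3, which promotes tubulin polymerization, at 0.04 (SE 0.06). In a piece of lung, fewer ciliated cells and less cilia RNA per cell cannot be told apart.

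The mean over members of log2 CPM was 4.27 ± 0.29 in oil vapor and 4.72 ± 0.18 in air lungs (SD, n = 6 each). The summed level of the 36 genes had a lowest, median and highest value of 1152, 1629 and 1859 CPM in oil vapor animals, against 1679, 2098 and 2413 CPM in air animals. The groups overlapped only in that air animal 1, the lowest of its group, lay among the oil vapor animals. Tppp3 alone made up 15.9% of the summed level on average, and without it the sums were 903, 1336 and 1562 CPM in oil vapor and 1395, 1803 and 2134 CPM in air.

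Foxj1, the master regulator, had 16.0, 26.3 and 33.4 CPM (lowest, median and highest animal) in oil vapor lungs, against 24.8, 39.5 and 47.97 CPM in air lungs. Its log2 fold change was -0.58 (SE 0.21, adjusted p = 0.385 by edgeR's quasi-likelihood test). Every oil vapor animal lay below the air median, and the ranges overlapped between 24.8 and 33.4 CPM.

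All 7 outer arm genes were lower (median -0.48), 6 of them lying between -0.45 and -0.59. Dnai2, an intermediate chain that links the motor to the doublet, had 5.90, 8.64 and 11.04 CPM in oil vapor lungs, against 7.96, 13.4 and 14.2 CPM in air lungs (log2 fold change -0.59, SE 0.20, adjusted p = 0.363). A single air animal, number 1, lay within the oil vapor range, and the other air animals lay above it. Ccdc114, of the docking complex, had 8.06, 9.50 and 12.7 CPM in oil vapor and 12.2, 13.1 and 17.6 CPM in air (-0.48, SE 0.18). The heavy chain Dnah11 had the smallest difference of the 7, -0.25 (SE 0.13).

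In the inner arm all 7 were lower too, with a median of -0.46. The heavy chain Dnah3 had the most negative value of all members, -0.66 (SE 0.22). Dnah2, another heavy chain, had 31.8, 43.7 and 57.7 CPM in oil vapor lungs, against 47.1, 68.9 and 80.8 CPM in air lungs (log2 fold change -0.58, SE 0.19, adjusted p = 0.357). Every oil vapor animal lay below the air median. For Dnali1, a light intermediate chain, all 6 oil vapor animals (9.28 to 16.8 CPM) lay below all 6 air animals (17.04 to 23.1 CPM).

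Dnah5 and Dnah7 are uncertain, because the tables hold a further row for each, Dnah5-2 and Dnah7-2, and reads of near-identical copies may have been split. Dnah7 averaged 6.12 ± 2.01 CPM in oil vapor lungs, against 7.41 ± 1.06 CPM in air lungs (SD, n = 6 each), a log2 fold change of -0.28 (SE 0.26). Dnah7-2 averaged 45.1 ± 12.6 CPM in oil vapor lungs, against 68.2 ± 16.6 CPM in air lungs (SD, n = 6 each), a log2 fold change of -0.59 (SE 0.22). Dnah5 and Dnah5-2 had like values, -0.48 (SE 0.21) and -0.58 (SE 0.21). Spag6 has a related row as well, Spag6l, near 1 to 2 CPM in every group.

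The 4 ruler and nexin link genes were all lower, their median being -0.51. Ccdc40, which with Ccdc39 sets the repeat along the doublet, had 11.8, 18.5 and 26.8 CPM in oil vapor lungs, against 26.0, 29.9 and 32.04 CPM in air lungs (log2 fold change -0.59, SE 0.21, adjusted p = 0.372). Only the highest oil vapor animal and the lowest air animal overlapped. Drc1, of the nexin-dynein regulatory complex, had -0.49 (SE 0.18). The 2 radial spoke genes differed less, with a median of -0.22. Rsph1, a spoke head protein, had 7.59, 10.4 and 13.5 CPM in oil vapor and 10.5, 13.2 and 17.1 CPM in air (-0.37, SE 0.19, adjusted p = 0.537), with broad overlap, and Rsph9, its neighbour in the spoke head, had -0.07 (SE 0.15).

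Of the central pair, 4 of the 5 genes were tested, since Spag16 (1.44 CPM on average) failed the filter on low counts in this schedule. All 4 were lower, with a median of -0.51. Spef2 had 9.28, 11.8 and 14.7 CPM in oil vapor lungs, against 14.4, 17.6 and 21.99 CPM in air lungs (log2 fold change -0.59, SE 0.21, adjusted p = 0.372). The overlap was again limited to 1 animal of each group. Spag17, another central pair protein, was the other member whose groups did not overlap, at 26.8 to 50.1 CPM in oil vapor and 50.2 to 62.8 CPM in air (-0.52, SE 0.19). Dnali1 and Spag17 were thus 2 of 35 members with all oil vapor animals below all air animals, against 0.432% of all genes tested.

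Tektins form filaments within the doublet wall. Tekt2 had 6.87, 9.96 and 11.9 CPM in oil vapor lungs, against 9.30, 12.4 and 15.1 CPM in air lungs (log2 fold change -0.36, SE 0.15, adjusted p = 0.455), and Tekt4 had -0.46 (SE 0.22). Tppp3 in the same role ranged from 249 to 331 CPM in oil vapor and from 280 to 301 CPM in air, and the oil vapor range enclosed the air range. Lrrc6, needed to assemble dynein arms before they enter the cilium, had 4.01, 6.32 and 8.48 CPM in oil vapor and 7.65, 9.28 and 10.3 CPM in air (-0.50, SE 0.25, adjusted p = 0.502). Zmynd10, its partner in arm assembly, had -0.23 (SE 0.18). Ak7, an adenylate kinase of the cilium, had 13.3, 18.0 and 26.5 CPM in oil vapor and 16.1, 25.7 and 36.98 CPM in air (-0.49, SE 0.22, adjusted p = 0.471), and Stk33, a serine/threonine kinase, had -0.53 (SE 0.26). The groups overlapped for Tekt2, Lrrc6 and Ak7.

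**Figure D1:**
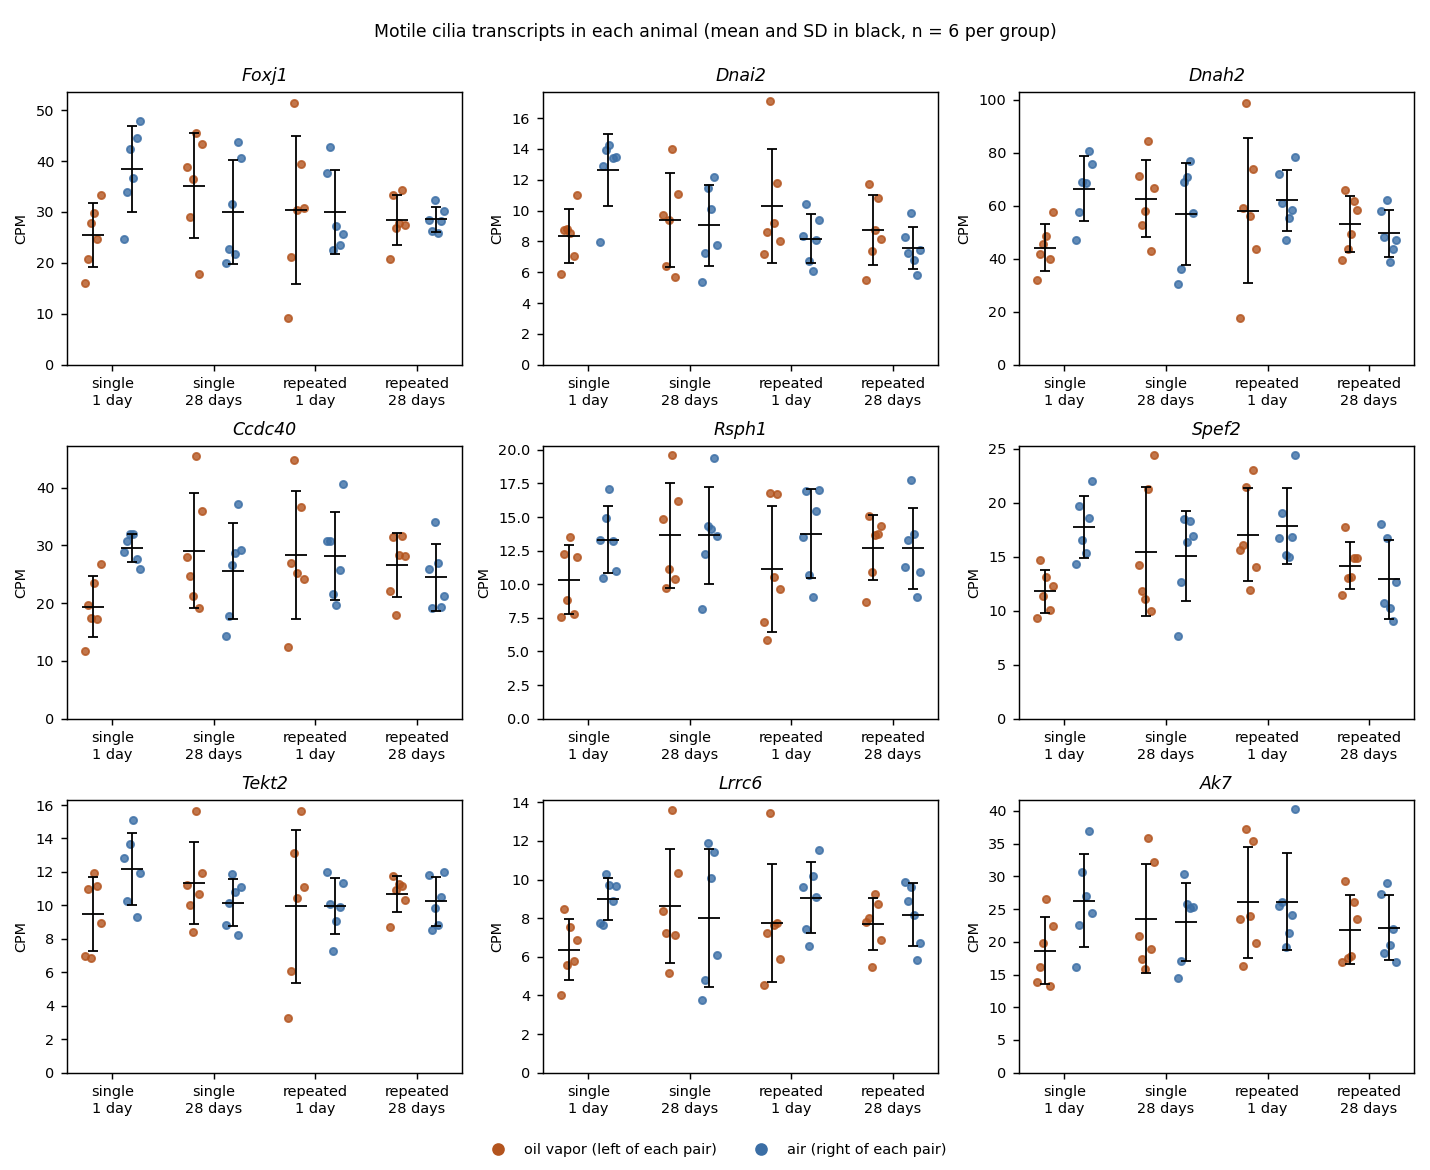
Levels (CPM) of Foxj1 and of 8 further members, 1 per role, in each of the 48 animals, with oil vapor left and air right in each pair; black bars give the mean and SD of 6 animals. The 8 were those with the smallest p of their role in the contrast 1 day after a single exposure, a choice that favours a difference in that pair. In that pair the oil vapor mean lies below the air mean in all 9 panels. Foxj1 averaged 25.4 CPM in oil vapor lungs of that pair, against 38.4 CPM in air lungs.

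Further cilia genes and markers of other airway cells were measured in the same contrast, and none of them passed at an adjusted p below 0.05. Of 50 measured genes from a further list of motile axoneme genes, 49 were lower 1 day after a single exposure, with a median of -0.38, and 24 were lower at an unadjusted p below 0.05. Among them were Lrrc71, at -0.38 (SE 0.12), and Ccdc151, of the outer arm docking complex, at -0.91 (SE 0.30). Of 12 measured genes that control the making of many cilia, 10 were lower, with a median of -0.34. Rfx2, which binds X-boxes, had -0.57 (SE 0.13, adjusted p = 0.198 by edgeR's quasi-likelihood test) and Gmnc, a starter of the multiciliated program, -1.09 (SE 0.30, adjusted p = 0.25). Of 33 genes of intraflagellar transport and the BBSome, which immotile cilia also use, 26 were lower, but the median was -0.09 and 3 were lower at an unadjusted p below 0.05. Of those, Traf3ip1 had -0.40 (SE 0.11) and Kifap3, a kinesin subunit, -0.17 (SE 0.05).

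Secretory cells of the airway showed the same direction. Of 9 club cell genes, 7 had lower values (median -0.46), and their summed level ranged from 1777 to 3000 CPM in oil vapor lungs (median 2469), against 2747 to 3702 CPM in air lungs (median 2986). Scgb3a1, a secretoglobin, had -2.90 (SE 0.83) and Bpifa1, a secreted defence protein, -2.26 (SE 0.86). Goblet and mucus markers had a median of -0.59 over the 6 tested, 4 of them below 0, and their summed level, 89.9 to 124 CPM in oil vapor and 156 to 308 CPM in air, did not overlap. Muc5b, a gel-forming mucin, had -2.26 (SE 0.57) and Bpifb1 -2.14 (SE 0.59). Tff2, of the goblet list, was at 0 in all 48 libraries.

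Both basal cell genes tested were lower (median -0.46), and none of 6 neuroendocrine markers reached a mean of 0.5 CPM. Alveolar markers lay on both sides of 0, with 4 of 8 type 2 genes lower (median -0.0046) and 5 of 8 type 1 genes lower (median -0.04). Markers from outside the lung epithelium did not pass at an adjusted p below 0.05 either. All 5 liver genes tested had higher values in oil vapor lungs (median 2.75). Their summed level was 49.6 to 389 CPM there, against 39.2 to 77.2 CPM in air lungs. All 8 erythroid genes had log2 fold changes above 0 (median 0.42), but their summed level had near-equal group medians. These were 3595 CPM for oil vapor animals (range 2508 to 14011) and 3587 CPM for air animals (range 2975 to 6552). The highest sum, 14011 CPM, belonged to oil vapor animal 5. All 5 heart genes tested were lower after oil vapor (median -1.27), at 61.7 to 245 CPM, against 33.4 to 640 CPM in air lungs. The part of these liver, erythroid and heart markers in the cilia result was not tested.

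An airway secretory score was the mean log2 CPM of 19 club and goblet genes, taken without a filter on level. Among them was Tff2, at 0 in all 48 libraries, whose term varied only with the library total. The score was added to the fit as a covariate. With it the median of the members was -0.13 rather than -0.48, 0 of 35 were lower at an unadjusted p below 0.05, and 28 of 35 had a negative value. The score itself ranged from 2.82 to 3.79 in oil vapor and from 3.37 to 4.31 in air animals. Without oil vapor animal 5, the lowest in cilia genes of its group and the richest in erythroid RNA, 13 of 35 members were lower at an unadjusted p below 0.05 and the median was -0.39. Over all genes, 658 of 14820 were lower at that p with the score and 771 of 14922 without animal 5.

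**Figure D2:**
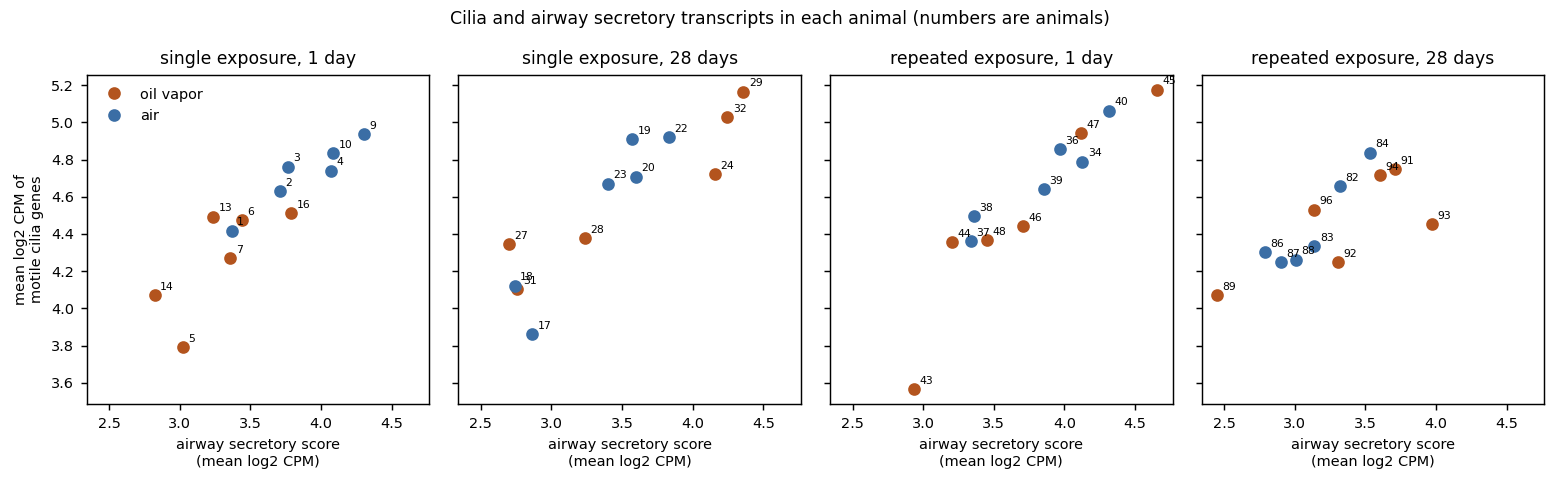
Mean log2 CPM of the 36 members (vertical axis) against the airway secretory score (horizontal axis) for each numbered animal, with oil vapor in brown and air in blue. Animals with a higher score mostly had more cilia RNA, with r = 0.87 over the 48 animals after centring within groups, and animal 43 lies lowest at 3.56.

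At 28 days after the single exposure the difference in the cilia genes was not seen. Of 35 members 27 were higher in oil vapor, with a median of 0.08 against 0.01 over all genes, and of -0.04 without air animal 17. At an adjusted p below 0.05 none passed, as for all genes (0%), and 0 of 35 had an unadjusted p below 0.05 in either direction, against 8.21% of all genes. Foxj1 ranged from 17.8 to 45.5 CPM in oil vapor (median 37.6) and from 19.9 to 43.8 CPM in air (median 27.1). The smallest p-values belonged to Stk33, at 0.36 (SE 0.26), Ccdc114, at 0.24 (SE 0.17), and Tppp3, at 0.08 (SE 0.06), and all ranges overlapped. By role the medians lay between -0.02 for the central pair and 0.15 for the ruler and nexin link genes, beside 0.22 for Foxj1 alone.

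After the repeated exposure, at 1 day, no common direction of like size was seen. Of 36 members 27 were lower in oil vapor, with a median of -0.09 against 0.02 over all genes. No member passed at an adjusted p below 0.05, against 0.00666% of all genes, which is 1 gene. The single member with an unadjusted p below 0.05, against 9.29% of genes in either direction, was Dnai2, and it was higher. Dnai2 had 7.16, 8.89 and 17.1 CPM in oil vapor, against 6.09, 8.21 and 10.4 CPM in air (log2 fold change 0.42, SE 0.19, adjusted p = 0.502 by edgeR's quasi-likelihood test). Without oil vapor animal 45, the highest, the value was 0.23. Stk33 had -0.50 (SE 0.28) and Ccdc113 -0.22 (SE 0.18), the second being -0.04 without air animal 40 and -0.30 without oil vapor animal 45.

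Oil vapor animals of this group had the largest SD of the 8 groups. The mean log2 CPM of the members was 4.47 ± 0.56 in oil vapor and 4.70 ± 0.26 in air (SD, n = 6 each), and Foxj1 ranged from 9.11 to 51.4 CPM in oil vapor and from 22.6 to 42.8 CPM in air. Animals 43 and 45 held the lowest and the highest summed level in the whole study, 915 and 2889 CPM. In the same group the summed club cell level was lowest in animal 43 and highest in animal 45, at 1938 and 4926 CPM. Animal 43 was also lowest of its group in the summed level of alveolar type 2 genes (6531 CPM, group median 15012) and type 1 genes (2730 CPM, group median 5318), and highest in liver genes (950.4 CPM, group median 218). The median of the members was -0.0054 without animal 43, -0.21 without animal 45 and 0.01 without air animal 40.

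At 28 days after the repeated exposure, 18 of 36 members were higher and 18 lower in oil vapor, with a median of -0.0028 against 0.0076 over all genes. The adjusted threshold of 0.05 was passed by none (0% of all genes), and 0 had an unadjusted p below 0.05 in either direction, against 4.86% of genes. Dnali1 had 0.28 (SE 0.17), Ccdc113 0.27 (SE 0.18) and Spag16 -0.52 (SE 0.37). The mean log2 CPM of the members was 4.46 ± 0.26 in oil vapor and 4.44 ± 0.25 in air (SD, n = 6 each).

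**Figure D3:**
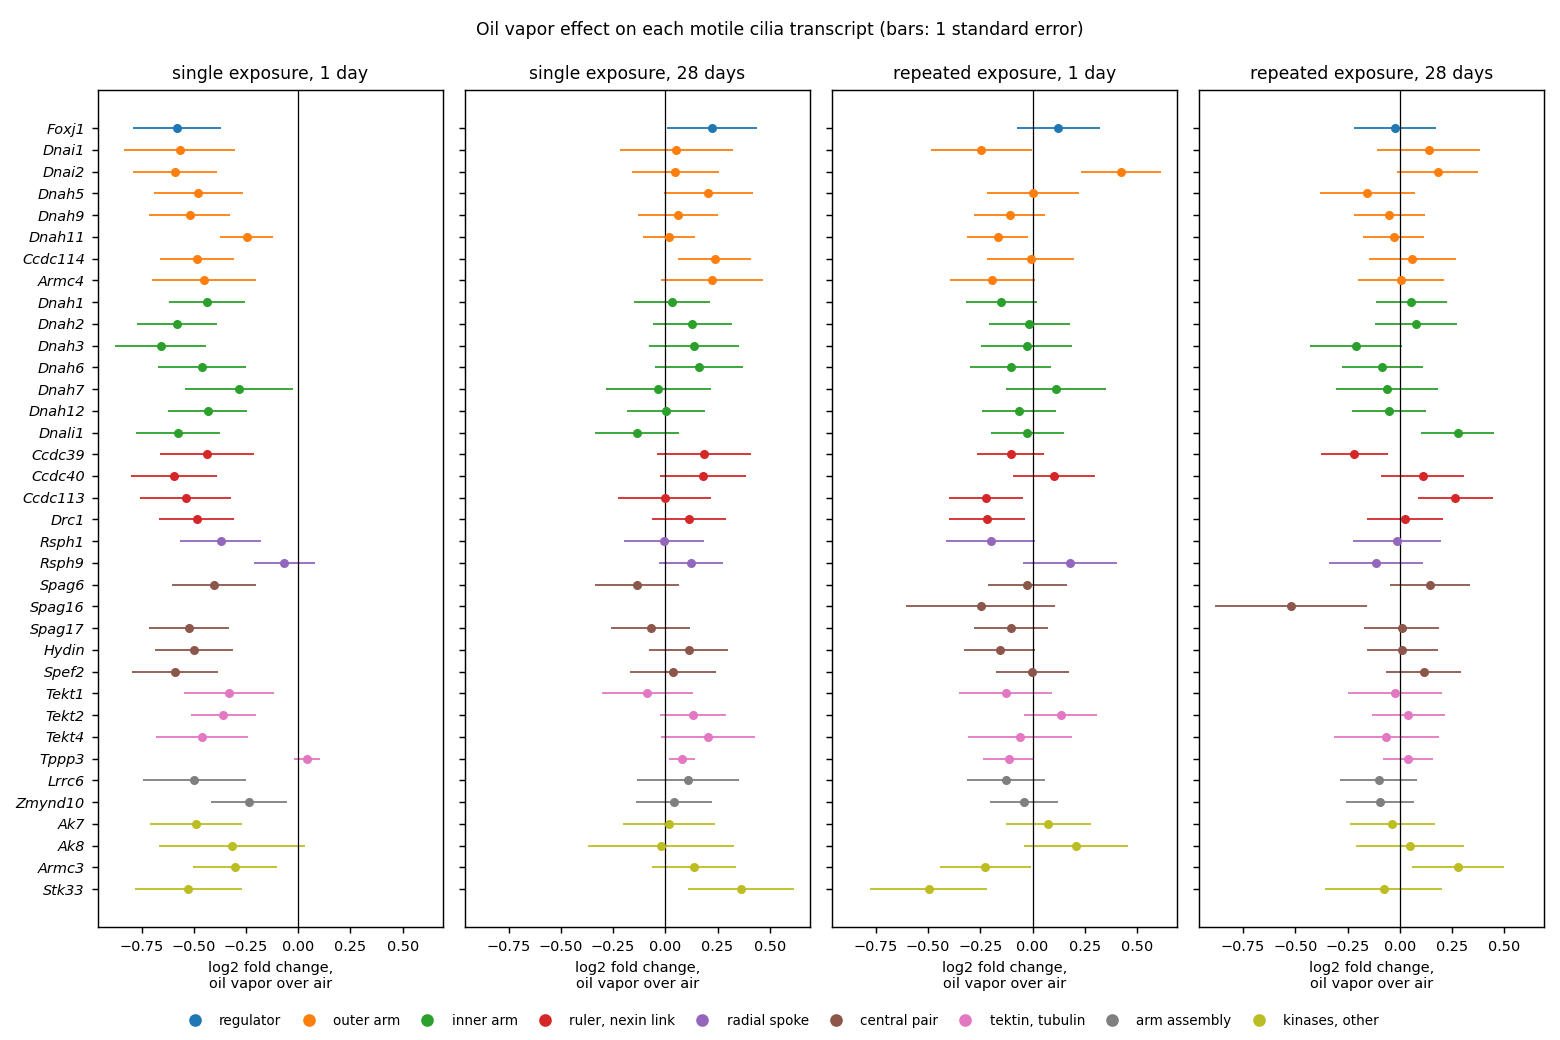
Log2 fold change, oil vapor over air, of each member in the 4 contrasts, coloured by role, with bars of 1 standard error. In the first panel 34 of 35 points lie left of 0, from -0.66 for Dnah3, and in the other panels points lie on both sides.

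**Figure D4:**
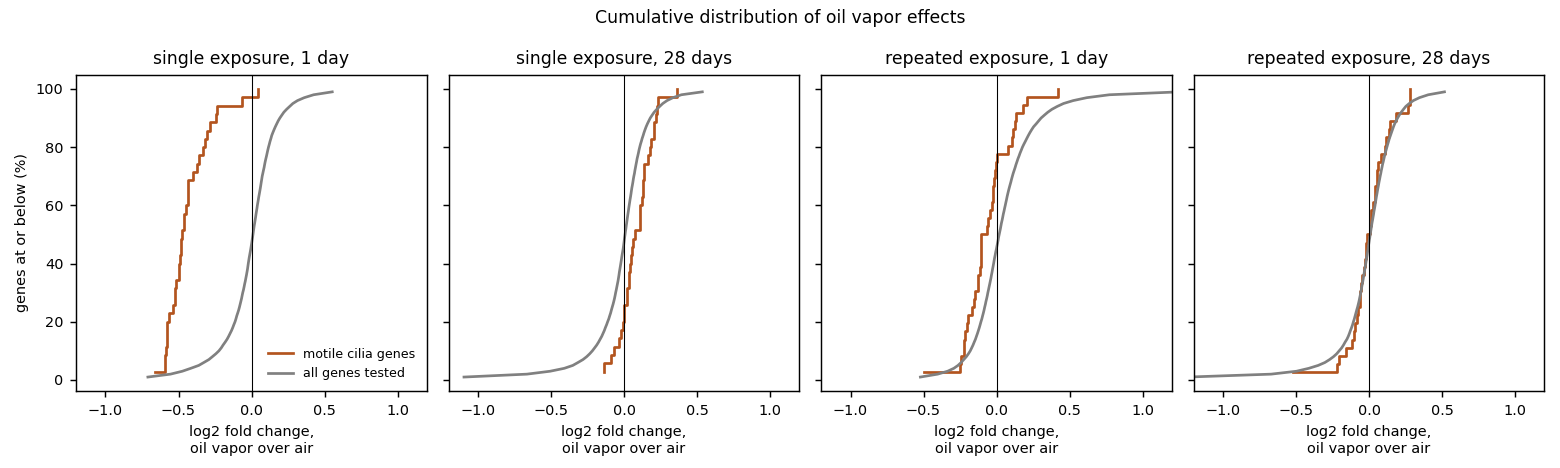
Share of genes (%) with a log2 fold change, oil vapor over air, at or below the value on the horizontal axis, for the members (brown) and all genes tested (grey). The curve of the members lies left of that of all genes 1 day after a single exposure, with a median of -0.48 against 0.01, and close to it in the other panels.

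The difference between the oil vapor effects was tested directly. In the single schedule the effect at 28 days minus that at 1 day was above 0 for 35 of 35 members, with a median of 0.58 against 0.00062 over all genes. None passed at an adjusted p below 0.05, and no other gene did (0%). At an unadjusted p below 0.05 15 of 35 were higher, against 3.84% of all genes. Ccdc114 had 0.72 (SE 0.25, adjusted p = 0.51 by edgeR's quasi-likelihood test), Foxj1 0.80 (SE 0.30) and Ccdc40 0.77 (SE 0.29). In the repeated schedule the same difference had a median of 0.06, with 23 of 36 above 0. There, 0 members passed at an adjusted p below 0.05, against 0.00666% of genes, and 0 at an unadjusted p below 0.05, against 7.8% of genes in either direction. Ccdc113 had 0.49 (SE 0.25), Armc3 0.51 (SE 0.31) and Dnali1 0.30 (SE 0.25).

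At 1 day the repeated effect minus the single effect was above 0 for 35 of 36 members, with a median of 0.37 against 0.02 over all genes. At an adjusted p below 0.05 none passed, against 0.0457% of genes, and 7 of 36 were higher at an unadjusted p below 0.05, against 5.8% of genes. These were Dnai2, Foxj1, Ccdc40, Tekt2, Spef2, Dnah2 and Dnali1. Dnai2 had 1.02 (SE 0.28, adjusted p = 0.166 by edgeR's quasi-likelihood test), Foxj1 0.72 (SE 0.30) and Ccdc40 0.71 (SE 0.30). Part of the value of Dnai2 lay in the air lungs, since at 1 day air lungs of the repeated schedule had 6.09 to 10.4 CPM, against 7.96 to 14.2 CPM in air lungs of the single schedule. At 28 days the repeated minus single effect had a median of -0.06. There, 0 members passed at an adjusted p below 0.05 (0% of genes), and 0 at an unadjusted p below 0.05, against 5.2% of genes in either direction. Dnali1 had 0.42 (SE 0.28), Ccdc39 -0.40 (SE 0.29) and Spag16 -0.67 (SE 0.52).

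Oil vapor lungs of the single schedule had mostly higher cilia values at 28 days than at 1 day. Of 35 members 34 were higher at 28 days, with a median of 0.39 against -0.0018 over all genes, and 15 were higher at an unadjusted p below 0.05, against 11.5% of genes. Ccdc114 alone passed at an adjusted p below 0.05, 1 of 35, against 9.43% of all genes. It rose by 0.61 (SE 0.18, adjusted p = 0.0282 by edgeR's quasi-likelihood test), with 11.1, 14.3 and 21.3 CPM at 28 days, against 8.06, 9.50 and 12.7 CPM at 1 day. Its groups overlapped, and the call was lost without any of oil vapor animals 24, 29 and 32 (28 days) or 5, 7 and 14 (1 day), with adjusted p between 0.0504 and 0.0791. Next came Dnah9, a heavy chain of the distal outer arm, at 0.57 (SE 0.19, adjusted p = 0.0612), and Drc1, at 0.52 (SE 0.18, adjusted p = 0.0628). Other markers differed between the same groups. Of 8 erythroid genes 6 fell at an adjusted p below 0.05, with a summed level of 1132 to 2604 CPM at 28 days and 2508 to 14011 CPM at 1 day. Of 5 liver genes tested 4 fell (median over the 5, -3.63), with 36.8 to 61.2 CPM at 28 days and 49.6 to 389 CPM at 1 day. Of 8 alveolar type 1 genes 4 rose (median over the 8, 0.17), with 5256 to 6053 CPM at 28 days and 4705 to 5467 CPM at 1 day. The part of these in the cilia values was not tested.

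Air lungs of the single schedule had the opposite sign over the same interval, in which time and age cannot be told apart. Of 35 members 30 were lower at 28 days, with a median of -0.17 against 0.0030 over all genes. No member passed at an adjusted p below 0.05, against 3.25% of genes, and 1 was lower at an unadjusted p below 0.05, Dnai2, against 8.65% of genes. Dnai2 had 5.38, 8.94 and 12.2 CPM at 28 days, against 7.96, 13.4 and 14.2 CPM at 1 day (-0.49, SE 0.20), while Foxj1 had -0.36 (SE 0.21) and Tekt4 -0.36 (SE 0.22). The groups overlapped in each of them.

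In the repeated schedule air and oil vapor lungs both had lower values at 28 days than at 1 day. In air 33 of 36 members were lower, with a median of -0.22 against -0.0019 over all genes. The adjusted threshold of 0.05 was passed by none, against 0.327% of genes, and 5 were lower at an unadjusted p below 0.05 (Ccdc113, Spef2, Spag17, Armc3 and Armc4), against 4.9% of genes. Spef2 had 9.08, 11.7 and 18.0 CPM at 28 days, against 14.98, 16.8 and 24.4 CPM at 1 day (-0.42, SE 0.18). In oil vapor 31 of 36 were lower, with a median of -0.18 against -0.01 over all genes. None passed at an adjusted p below 0.05, against 0.34% of genes, and 1 was lower at an unadjusted p below 0.05, Ccdc39 at -0.33 (SE 0.16), against 7.94% of genes. Spef2 had -0.31 (SE 0.18) and Dnah5 -0.38 (SE 0.23) in oil vapor lungs.

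Between the schedules, air lungs at 1 day differed little in the members, with a repeated minus single median of -0.01, 19 of 36 lower and 17 higher. At an adjusted p below 0.05 none passed, against 3.76% of genes, and 1 was lower at an unadjusted p below 0.05, against 10% of genes. This was Dnai2, at -0.65 (SE 0.20, adjusted p = 0.0522 by edgeR's quasi-likelihood test). Tekt2 had -0.32 (SE 0.17) and Foxj1 -0.38 (SE 0.21). Schedule, age and count table cannot be told apart in this comparison.

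Ordered by the mean log2 CPM of the members, the lowest group was oil vapor 1 day after the single exposure, at 4.27 ± 0.29 (SD, n = 6). Next came air at 4.44 ± 0.25 and oil vapor at 4.46 ± 0.26, both 28 days after the repeated exposure (SD, n = 6 each). Oil vapor 1 day after the repeated exposure followed at 4.47 ± 0.56 (SD, n = 6). Then came air at 4.53 ± 0.44 and oil vapor at 4.62 ± 0.42, both 28 days after the single exposure (SD, n = 6 each). Air lungs at 1 day were at the top, with 4.70 ± 0.26 in the repeated and 4.72 ± 0.18 in the single schedule (SD, n = 6 each). Neighbours in this order differed by less than their SD.

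Within groups the members went up and down together from animal to animal. After centring within groups, each member was set against the mean of the other 35 over 48 animals, which share library, depth and the piece of lung taken. Pearson r was highest for the central pair giant Hydin (0.97), Dnah9 (0.96), Dnah6 (0.96) and Dnah12 (0.96), and was over 0.9 for 12 members in all, among them Zmynd10 (0.94) and Ccdc40 (0.91). It was lowest for Tppp3 (0.53), Rsph9 (0.61), Tekt2 (0.61) and Spag16 (0.62). Without animal 43 it was 0.38 for Tppp3, 0.55 for Rsph9, 0.51 for Tekt2, 0.63 for Spag16 and 0.97 for Hydin. Low counts add noise to Spag16 (1.44 CPM), Ak8 (3.65 CPM, r = 0.69) and Stk33 (4.86 CPM, r = 0.64), but Tppp3, at 306 CPM, was among the most read members. Its SD within groups was 0.24 on the log2 scale, against 0.39 for Hydin. CPM is not scaled to transcript length, so levels of different genes are not compared here.

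**Figure D5:**
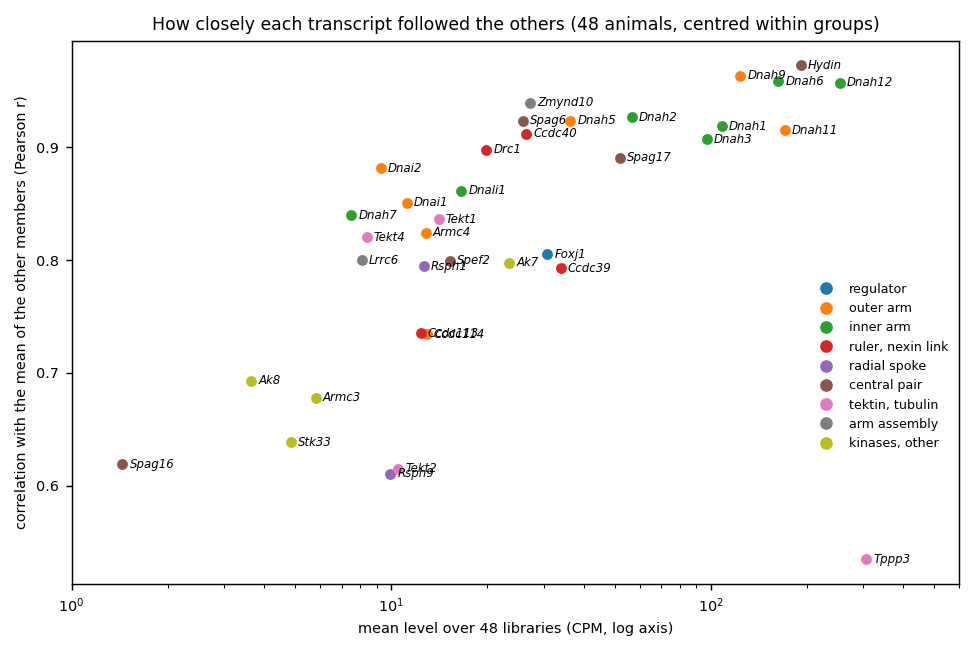
Pearson r of each member with the mean of the other members over 48 animals, centred within groups (vertical axis), against its mean level in CPM (horizontal log axis), coloured by role. Hydin lies at the top at 0.97 and Tppp3, far to the right at 306 CPM, at the bottom at 0.53.

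Among 15518 further genes with a mean of at least 1 CPM, 32 had r of at least 0.9 with the mean of the members, and the median r was 0.18. The 15 most alike were Cfap44 (0.97), Ccdc17 (0.96), RGD1565866 (0.95), Dnah10 (0.95), LOC100362748 (0.94), LOC686932 (0.94), Spata18 (0.94), RGD1564567 (0.94), Dnah7-2 (0.94), Cdhr4 (0.94), Rsph10b (0.94), Ccdc153 (0.93), Ccdc37 (0.93), Cfap43 (0.93) and Vwa3a (0.93). Of these 6 stood on the further axoneme list. At 1 day after a single exposure, their oil vapor values ran from -0.32 (SE 0.19) for Cfap43 to -0.68 (SE 0.22) for LOC100362748, and 0 of the 15 passed at an adjusted p below 0.05.

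Each list was taken as the mean log2 CPM of its genes averaging at least 0.5 CPM, centred in the same way. The further axoneme genes then followed the members with r = 0.98, intraflagellar transport genes with 0.89 and club cell genes with 0.87. Regulators of ciliogenesis had r = 0.85 and goblet genes 0.79. For alveolar type 2 and type 1 genes r was 0.33 and 0.21, for heart 0.45, for erythroid -0.41 and for liver -0.35. Basal cell genes, of which only 2 reached that level, had 0.41. With the airway secretory score r was 0.87 over 48 animals and 0.87 without animal 43, and with the log2 library total it was 0.30. These correlations describe the libraries, which also differ in which piece of lung was taken, and the part of that was not tested.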

How the data were processed

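Each schedule has its own table of raw counts, deposited by the authors with a row per gene symbol and 24 libraries, which makes 2 tables with 0 columns of no sample. Per the labels' protocols, 1 µg of total RNA per lung went into a stranded TruSeq library after depletion of ribosomal RNA, with 12 PCR cycles. Per the submitters' processing notes, reads were handled with HTSeq 0.6.1, HISAT2 2.1.0, Trimmomatic 0.35, SAMtools 1.8 and bcl2fastq 2.19 on build Rnor_6.0. Annotation and strand setting are not given in the sources used here, which leaves overlapping and antisense genes uncertain. For 1 animal (32) the description named the other table, and its title and column were followed.

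Totals averaged 5.18 ± 1.02 M (mega) counts (SD, n = 48). A gene at 0 may have up to 3 counts, or 0.419 to 1.95 CPM by library. This covers counting error only, because PCR copies of a molecule cannot be told from separate ones without molecular identifiers. Contrasts were fitted over the 24 libraries of a schedule, or all 48 between schedules, with 1 mean per group. edgeR 4.0.16 under R 4.3.3 scaled the counts by TMM after filterByExpr. The test was edgeR's quasi-likelihood test, two-sided, with Benjamini-Hochberg adjustment over all genes tested and a threshold of 0.05. Each standard error (SE) is the absolute log2 fold change over the square root of the test's F. Levels are counts over library totals, and log2 CPM has 0.5 added to each count.

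The members and lists were chosen with earlier results of these data known. Named members are Foxj1, in the contrast 1 day after a single exposure the 2 of each role with the smallest p, in other contrasts the 3 with the smallest p, and any past the threshold. Of the other lists the 2 genes with the smallest p are named. Dnah11, Dnah7, Dnah5, Tppp3 and members listed at an unadjusted p below 0.05 or without overlap are beyond that rule, named once their values had been seen. Alternatives were RLE size factors, no filter, DESeq2 1.42.0, limma-voom (limma 3.58.1) with sample weights, only the 12 libraries compared, the airway secretory score as a covariate, and each animal left out in turn. The settings for the differences between oil vapor effects, and the animals left out for oil vapor at 28 days against 1 day, were chosen after seeing the data. Promoters came from RefSeq tables of build GRCr8, which differs from the build of the counts, and were used for sequence only. The promoter sequence of 1 member is not reported here.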

Additional observations from a re-analysis of the deposited data

Results flagged for a closer look

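A test for an animal far from the rest of its group (Dixon's ratio of its gap to the group's range) was made 88 times, on the 9 members given per animal, on the mean log2 CPM and on the summed level of the members in each group. Chance alone marks about 1 in 20 groups, and 3 were marked. Dnai2 was 7.956 CPM in air animal 1 (single exposure, 1 day), below the other 5. Lrrc6 was 13.44 CPM in oil vapor animal 45 (repeated exposure, 1 day), above the other 5. Ak7 was 40.28 CPM in air animal 40 (repeated exposure, 1 day), above the other 5.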

How the results depend on the processing

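At 1 day after a single exposure, 0 members passed at an adjusted p below 0.05 under every setting tried, and the median of the members stayed between -0.46 and -0.48 under the other scalings, filters and tests, between -0.53 and -0.39 when single animals were left out, and at -0.13 with the airway secretory score. The count of members lower at an unadjusted p below 0.05 was 0 with that score and 13 (without oil vapor animal 5) to 25 (without air animal 1) when animals were left out. Over all genes the counts in these fits were, in that order, 658 of 14820, 771 of 14922 and 883 of 14928. With the score, Zmynd10 had 0.11 and Rsph9 0.15, the reverse of their sign, and the cause was not tested. In the other oil vapor contrasts the counts of members lower at an unadjusted p below 0.05 were 0 in the main fit. With the score they were 1 at 28 days after the single exposure, against 657 of all 14820 genes. After the repeated exposure they were 1 at 1 day, against 555 of all 15005 genes, and 5 of 36 at 28 days, against 364 of all 15005. With only the 12 libraries compared the last was 1, against 945 of all 14455 genes. For the repeated exposure at 1 day the counts were 0 to 4 when animals were left out. They were 4 without oil vapor animal 45 (570 of all 15083 genes) and 1 without animal 47 (553 of all 15088). Medians near 0 changed sign: 0.03 with limma-voom 1 day after the repeated exposure and -0.05 with the score at 28 days after the single exposure. With single animals left out they ran from -0.04 (without air animal 17) to 0.15 at 28 days after the single exposure, and from -0.06 (without oil vapor animal 94) to 0.07 (without air animal 84) at 28 days after the repeated exposure.

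For oil vapor of the single schedule, 28 days against 1 day, 2 members were called by DESeq2 (1615 of all 14816 genes) and 2 by limma-voom (1628 of all 14820), and 0 to 3 when animals were left out. The count higher at an unadjusted p below 0.05 was then 6 without oil vapor animal 29, against 1633 of all 14900 genes. It reached 20 without oil vapor animal 31, against 1597 of all 14936. Ccdc114 lay between 0.50 and 0.68. Air lungs of the repeated against the single schedule at 1 day had 1 member called by DESeq2 (795 of all 15222 genes) and 1 by limma-voom (1341 of all 15322). The repeated minus single oil vapor effect at 1 day had 13 members higher at an unadjusted p below 0.05 with limma-voom and 8 without animal 43, against 7. Over all genes the counts were, in that order, 1206 of 15322, 1074 of 15386 and 888 of 15322. No paired analysis was made, because the groups share no replicate numbers in the labels. Raw Alas2 counts did run in parallel by position between the schedules, with r = 0.997 over 24 pairs of animals. The part of this in the repeated minus single values was not tested. Depth limits Spag16 and Ak8 most, as the members with the fewest counts.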
